A study of Mus musculus with 56 samples.

Results

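Sspn, which encodes sarcospan, and 7 further genes of the dystrophin and utrophin glycoprotein complexes (Sgca, Sgcb, Sgcd, Sgce, Dag1, Dmd and Utrn) were followed through the lung, liver and forestomach of mice given chrysene, a polycyclic aromatic hydrocarbon. Probes were assigned to these genes through the RefSeq transcript named for each probe, which gave 13 of the 55681 probes and 8 of the 20018 named genes on the array. Where a gene had several probes, the one with the highest mean sample signal in a tissue was used there and the others served as a check. Sspn was picked because its lung values rose with dose, so its lung dose changes, and its lung levels set against the other tissues, are given as a description without a test. The other 7 genes were taken as its partners in the complex.

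The mice were adult MutaMouse males of about 14 weeks, which carry a transgene for scoring mutations, and were gavaged daily for 28 days. The vehicle group (D0) received olive oil alone, and the dosed groups received chrysene dissolved in it, with D1 at 17.5, D2 at 50 and D3 at 150 mg/kg-bw/day. Tissues were taken 72 h after the last dose. Each of the 56 arrays compared RNA of 1 tissue of 1 mouse (Cy5) with a universal mouse reference RNA (Cy3). Lung had 5, 5, 3 and 5 mice in D0 to D3, and liver and forestomach each had 5, 5, 4 and 5, with the 3 tissues taken from the same mice. All levels below are log2 ratios of the sample over the reference as deposited, and all changes are differences of such ratios. In whole tissue, fewer cells of a type and less RNA per cell cannot be told apart.

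Sarcospan is a small membrane protein with several membrane-spanning segments that binds the sarcoglycans, a group of single-pass membrane proteins. Sarcoglycans and sarcospan sit beside dystroglycan, which holds laminin and other matrix proteins outside the cell and dystrophin or its relative utrophin inside it. The complex is best known for keeping the membrane of striated muscle fibres intact, and its members are also made in smooth muscle, endothelium and epithelia. Alpha-sarcoglycan (Sgca) is largely a striated muscle protein, whereas epsilon-sarcoglycan (Sgce) is made in many tissues.

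The tissues carried their own markers. The mean log2 ratio of 5 alveolar type 2 genes was at least 6.31 on every lung array, that of 6 hepatocyte genes was at least 6.66 on every liver array, and that of 7 keratinocyte genes was at least 3.20 on every forestomach array. Some arrays stood apart. In lung, D3 mice 17 and 19 had mean log2 ratios of 5.42 and 5.30 for 14 skeletal muscle genes, against 0.05 or lower on the other 16 lung arrays. The same 2 mice also stood highest for 7 keratinocyte genes (3.27 and 3.66, against -0.31 or lower), 6 fibroblast genes (1.30 and 1.08, against 0.58 or lower) and 10 smooth muscle genes (2.02 and 1.77, against 1.17 or lower), and the part of any of these lists in the results was not tested. In forestomach, 6 genes of the glandular stomach ranged from 0.43 to 7.19 over the arrays. Lung arrays had 49.0% to 56.7% of their spots well above background, liver arrays 34.5% to 46.4%, and forestomach arrays only 18.9% to 51.7%. On the slides, the array column followed the dose, with all 5 D0 lung arrays in column 1 and no dosed lung array there, so column and dosing cannot be told apart in lung. The mean log2 ratio of 6 adipocyte genes was also higher in D3 lung (median 2.95, range 1.46 to 4.41) than in D0 lung (median 1.41, range 0.76 to 2.81). For the 6 hepatocyte genes it was 0.854 to 1.355 in D3 lung (median 0.98) and 0.491 to 0.849 in D0 lung (median 0.61). At most 3 of these 6 were well above background on each of these arrays, and the part of this list in the results was not tested.

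In lung the Sspn mean was higher at each dose step, which is the pattern it was picked for. Its probe (A_55_P2031979) was well above background on all 56 arrays. In D0 lung the log2 ratios were 0.73, 0.78, 0.89, 0.97 and 1.26 (mean 0.93 ± 0.21 SD, n = 5). In D1 they were 0.80, 0.89, 1.13, 1.23 and 1.38 (mean 1.09 ± 0.24 SD, n = 5). Of the D1 mice, 4 of 5 lay within the D0 range and 1 lay above it. In D2 they were 1.12, 1.43 and 1.49 (mean 1.34 ± 0.20 SD, n = 3). In D3 they were 1.38, 1.52, 1.58, 1.59 and 1.71 (mean 1.56 ± 0.12 SD, n = 5), all above the highest D0 mouse. The D3 mean was 0.63 above D0, or 1.55-fold, and the fitted change over the dose steps was 0.64. The normalized Cy5 signal of the probe went from 10.65 ± 0.26 to 11.23 ± 0.15 (log2, SD, n = 5 each) between D0 and D3, while the Cy3 signal of the reference was 9.61 ± 0.08 and 9.56 ± 0.08. Thus the difference lay in the sample channel. The signals of skeletal muscle and of the other lists in mice 17 and 19 moved with the D3 group, and without these mice the Sspn change was 0.57. With the adipocyte list as a covariate, an alternative added after the data had been seen, the change was 0.63. Within slides 1, 2 and 3 the D3 mean exceeded the D0 mean by 0.71, 0.28 and 0.75, with 1 or 2 arrays on each side. With array column as a covariate the change was 0.41 with an SE of 0.46.

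In liver, where Sspn was low against the reference, no dose group passed the limits of the test. The D0 log2 ratios were -2.20, -1.89, -1.74, -1.67 and -1.42 (mean -1.78 ± 0.29 SD, n = 5). The D1 ratios were -1.89, -1.88, -1.67, -1.64 and -1.23 (mean -1.66 ± 0.27 SD, n = 5). The D2 ratios were -1.66, -1.56, -1.13 and -1.11 (mean -1.36 ± 0.29 SD, n = 4) and the D3 ratios -1.66, -1.60, -1.47, -1.47 and -1.37 (mean -1.52 ± 0.12 SD, n = 5). The dosed mice overlapped the D0 mice, whose lowest value stood below all of them. The change at D1 was 0.12 ± 0.15 (SE, adjusted p = 1.00, limma). The change at D2 was 0.42 ± 0.15 (SE) with an adjusted p of 0.998 by limma, and that at D3 was 0.27 ± 0.15 with an adjusted p of 1.00, and 0.16 without D0 mouse 5. The fitted change over the dose steps was 0.32 ± 0.14 (adjusted p = 0.917, limma).

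In forestomach the Sspn change was 0.78 ± 0.25 (SE) at D3, or 1.72-fold, with a 95% interval of 0.26 to 1.31, and it did not pass the adjustment over all probes (adjusted p = 0.280, unadjusted p = 0.00565, limma). The D0 log2 ratios were 0.50, 0.51, 0.84, 1.13 and 1.20 (mean 0.84 ± 0.33 SD, n = 5), and those of D3 were 1.10, 1.496, 1.63, 1.68 and 2.21 (mean 1.62 ± 0.40 SD, n = 5). Of the D3 mice, 4 of 5 lay above every D0 mouse. The D1 ratios were 0.59, 0.86, 0.97, 1.47 and 1.89, and the D2 ratios were 0.71, 1.10, 1.40 and 1.57. The fitted change over the dose steps was 0.73 ± 0.23 (adjusted p = 0.249, limma). Within slides 1, 2 and 3 the D3 mean exceeded the D0 mean by 0.72, 0.86 and 0.80. The Sspn effect at D3 was 0.52 ± 0.27 larger in forestomach than in liver, which was not a called difference (adjusted p = 0.531, limma). The mean log2 ratio of 10 smooth muscle genes was 3.24 to 4.62 in D0 forestomach and 4.08 to 5.15 in D3. Between D0 and D3 the median of 6 fibroblast genes went from 0.30 (range -0.17 to 0.98) to 0.89 (0.38 to 0.98), and that of 7 endothelial genes from 0.49 (0.31 to 1.67) to 1.01 (0.53 to 1.503). That of the glandular stomach list went from 5.92 (0.78 to 7.01) to 1.97 (0.73 to 7.19). The part of these 3 lists in the Sspn change was not tested. With the smooth muscle list as a covariate the Sspn change at D3 was 0.52 (adjusted p = 0.420, limma).

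**Figure D1:**
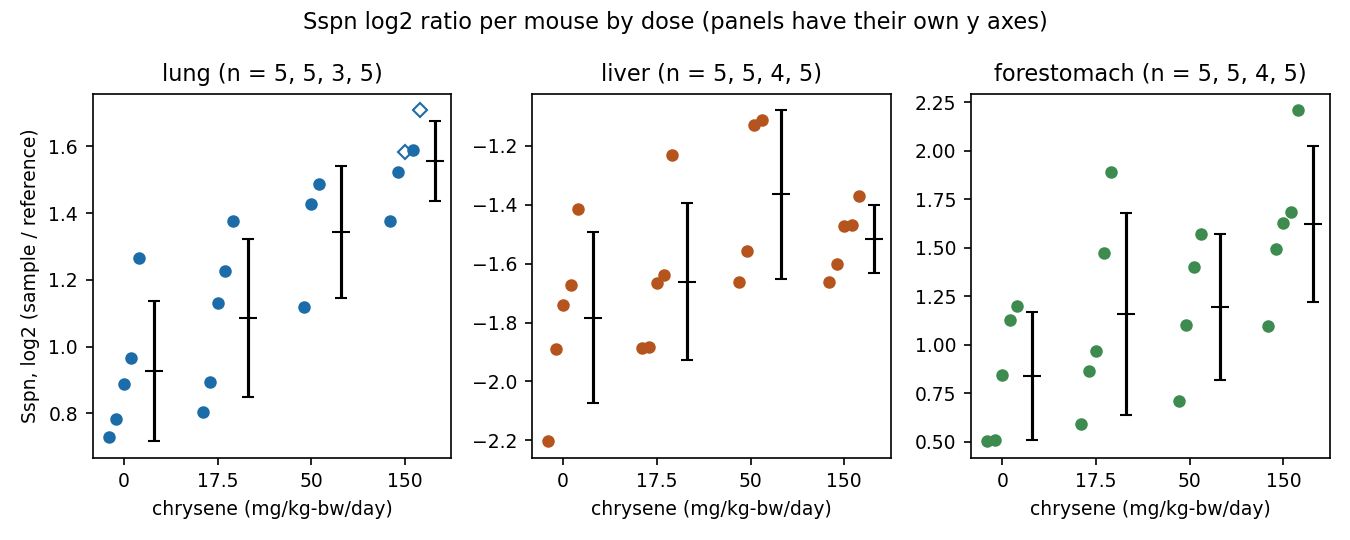
Sspn log2 ratio of sample over reference (y axis, a separate scale per tissue) against chrysene dose in mg/kg-bw/day (x axis). Points are single mice, bars are the mean ± SD of each group, and open diamonds mark lung mice 17 and 19. Group means run from 0.93 to 1.56 in lung, from -1.78 to -1.52 in liver and from 0.84 to 1.62 in forestomach between D0 and D3.

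The mice that were high for Sspn in lung were also high in liver. The differences between dose groups, on which Sspn was picked, were removed by setting each value against the mean of its dose group and tissue. The 18 mice with both arrays had a Pearson r of 0.73 (permutation p = 0.00071, adjusted over 3 tissue pairs p = 0.00213) and a Spearman rho of 0.70 (permutation p = 0.00166, adjusted p = 0.00498). Without the 2 mice farthest from the median in liver, r was 0.64, and with slide removed as well as dose it was 0.82. Without mice 17 and 19 it was 0.73. An r at least this high was found at 1.60% of the 23411 probes tested in both tissues. For 12 of these 18 mice the lung and liver arrays held the same row and column on their slides, and the part of this position in the relation was not tested. The other pairs of tissues had r = 0.21 (lung and forestomach, 18 mice, permutation p = 0.406, adjusted p = 0.406; rho = 0.16, permutation p = 0.516, adjusted p = 0.516) and r = -0.27 (forestomach and liver, 19 mice, permutation p = 0.257, adjusted p = 0.386; rho = -0.31, permutation p = 0.191, adjusted p = 0.286).

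The stretches before the annotated starts were searched because chrysene is a ligand of the aryl hydrocarbon receptor, whose DNA element holds GCGTG. They are printed for Sspn and for Sgcb, Dag1 and Dmd, the partners in which GCGTG or the CArG box, named next, was found. The letters GCGTG (read on both strands), the E-box CACGTG and the CArG box of smooth and striated muscle genes were searched in the 250 bases before each start, from RefSeq on the build GRCm38.p6. CACGTG does not hold GCGTG on either strand, so no match counts under both. The table matched 7 of the 8 genes, with 10 starts. Each line is written 5′ to 3′ on the gene's strand in lower case, and capitals mark the motifs found.
Sspn upstream start, chr6:145931623-145931872, plus strand: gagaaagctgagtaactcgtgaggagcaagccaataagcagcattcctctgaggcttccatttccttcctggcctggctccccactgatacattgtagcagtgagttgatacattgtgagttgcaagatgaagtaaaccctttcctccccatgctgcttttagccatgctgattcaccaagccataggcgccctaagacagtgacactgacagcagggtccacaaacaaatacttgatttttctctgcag
Sspn downstream start, chr6:145933872-145934121, plus strand: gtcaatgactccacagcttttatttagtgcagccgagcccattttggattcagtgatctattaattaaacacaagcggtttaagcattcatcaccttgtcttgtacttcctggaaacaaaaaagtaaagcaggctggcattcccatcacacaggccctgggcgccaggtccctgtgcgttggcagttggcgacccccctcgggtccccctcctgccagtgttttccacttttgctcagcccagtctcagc
Sgcb, chr5:73647738-73647987, minus strand: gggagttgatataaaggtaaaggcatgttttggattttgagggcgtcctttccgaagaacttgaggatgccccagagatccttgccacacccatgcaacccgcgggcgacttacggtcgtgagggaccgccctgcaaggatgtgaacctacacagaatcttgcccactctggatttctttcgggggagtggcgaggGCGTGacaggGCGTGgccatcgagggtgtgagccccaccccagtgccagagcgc
Dag1, chr9:108263816-108264065, minus strand: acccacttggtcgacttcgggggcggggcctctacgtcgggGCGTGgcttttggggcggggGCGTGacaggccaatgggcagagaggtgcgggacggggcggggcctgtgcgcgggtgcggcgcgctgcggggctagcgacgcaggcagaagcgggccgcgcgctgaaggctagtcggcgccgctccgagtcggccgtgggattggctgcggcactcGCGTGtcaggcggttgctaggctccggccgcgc
Dmd, chrX:82948620-82948869, plus strand: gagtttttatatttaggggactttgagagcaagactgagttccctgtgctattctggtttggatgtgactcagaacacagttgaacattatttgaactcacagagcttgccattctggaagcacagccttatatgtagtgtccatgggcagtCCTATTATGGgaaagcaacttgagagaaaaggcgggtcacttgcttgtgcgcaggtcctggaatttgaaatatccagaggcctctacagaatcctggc

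Neither Sspn start had any of the 3 motifs in this window. GCGTG lay in 4 of the 10 stretches, of which the 2 of Dag1 overlap, against 28.2% of all 32851 promoters in the table, CACGTG in 2 (6.02% of all) and the CArG box in 1 (1.47% of all). The Sgcb stretch had GCGTG at positions -54 and -44, counted from the base before the start as -1, and the printed Dag1 stretch had it at -209, -189 and -33. A CArG box began at -98 before the Dmd start shown, and a second Dmd start had GCGTG at -40 on the opposite strand. Utrn had CACGTG at -139 and Sgcd at -244, and Sgca had none of the 3. These are letter matches and were not tied to any measurement of binding.

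Among the 7 partners tested in lung, none was called at D3 (adjusted p of at most 0.05 and a 1.5-fold change, limma), where 0.127% of the 31496 probes were called. Before adjustment, 3 of the 7 (Dag1, Utrn and Sgca, the last measured on 1 of 5 D0 arrays) had a p of at most 0.05, against 16.1% of all probes. Their median change was -0.01, against -0.03 over all probes. In lung 0 of the 7 had D3 mice wholly outside the range of the D0 mice, against 2.61% of all probes.

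Among the sarcoglycans, Sgca had the widest spread in lung, and its probe was well above background on only 7 of the 18 lung arrays, 1 of 5 in D0 and 3 of 5 in D3, so its changes rest on a D0 level near background. Its D0 log2 ratios were -0.54, -0.50, -0.32, -0.30 and -0.08 (mean -0.35 ± 0.18 SD, n = 5). In D3 they were -0.56, -0.39, -0.25, 2.16 and 2.57 (mean 0.70 ± 1.53 SD, n = 5). The 2 high values belonged to mice 17 and 19, which also stood highest for the skeletal muscle, keratinocyte, fibroblast and smooth muscle lists, and the other 3 D3 mice lay with D0 or just below it. The D3 change was 1.06 ± 0.48 (SE, adjusted p = 0.293, limma) with these mice and -0.05 without them. Sgcd, delta-sarcoglycan, also had its highest lung values in the same mice, -0.92 and -1.13, against -1.89 to -1.35 on the other 16 arrays. Its change at D3 was 0.18 ± 0.14 (SE, adjusted p = 0.554, limma), and -0.06 without mice 17 and 19. Sgcb, beta-sarcoglycan, changed by 0.09 ± 0.09 and Sgce by -0.02 ± 0.10 in lung (SE, adjusted p = 0.673 and 0.959, limma), and their 95% intervals were -0.10 to 0.28 and -0.23 to 0.20. Over the alternative ways of processing, the Sgce change in lung ran from -0.35 to 0.20. With array column as a covariate the Sgcb change was 0.73, in a fit that cannot tell column and dosing apart in lung.

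Utrophin and dystroglycan had lower means in D3 lung. With array column as a covariate their changes were 0.40 and 0.37, but column and dosing cannot be told apart in lung, so no direction is read from that fit. The Utrn log2 ratios were 2.06, 2.34, 2.41, 2.41 and 2.65 in D0 and 1.24, 1.39, 2.01, 2.19 and 2.36 in D3. The lowest 2 D3 values were again those of mice 19 and 17, while the other 3 lay within or just below the D0 range. The change was -0.53 ± 0.19 (SE, adjusted p = 0.2002, limma), and -0.19 without mice 17 and 19. For Dag1, which encodes both subunits of dystroglycan, the ratios were 1.37, 1.58, 1.60, 1.64 and 1.79 in D0 and 1.00, 1.01, 1.31, 1.41 and 1.64 in D3. The change was -0.32 ± 0.12 (SE, adjusted p = 0.222, limma), and -0.14 without these mice. The mean log2 ratio of 7 endothelial genes was 5.16 to 5.68 in D0 lung (median 5.50) and 5.10 to 5.60 in D3 lung (median 5.37). Its part in the Utrn and Dag1 changes was not tested. Dmd, which encodes dystrophin, was at 1.00 ± 0.24 in D0 and 0.99 ± 0.28 in D3 lung (SD, n = 5 each). On all 18 lung arrays the Cy3 reference signal of the Dmd probe stayed below the limit for detection (mean 47.2), so the Dmd ratio rests on a denominator near background.

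**Figure D2:**
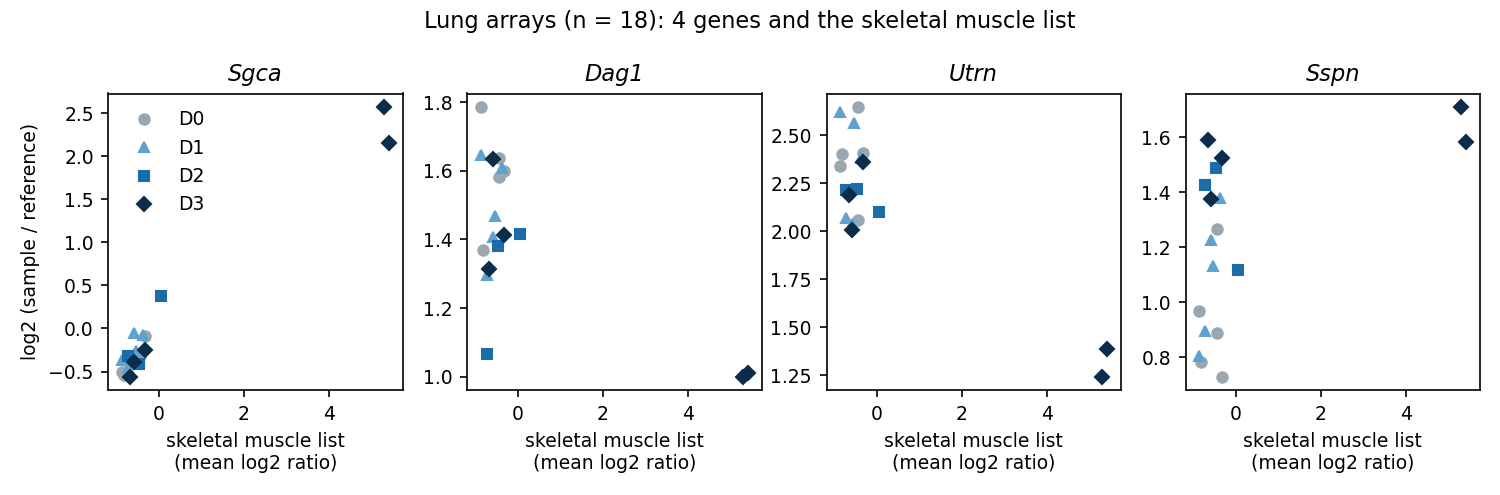
Log2 ratio of sample over reference for Sgca, Dag1, Utrn and Sspn (y axes, separate scales) against the mean log2 ratio of 14 skeletal muscle genes (x axis) on the 18 lung arrays, with symbols for dose. Mice 17 and 19, at 5.42 and 5.30 on the x axis, hold the highest Sgca and the lowest Utrn values, and their Sspn values are 1.58 and 1.71, the latter the highest of the 18.

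In liver, 6 genes could be tested and none was called at D3, where 0 of 24769 probes were called by limma. Sgca and Sgcd were not well above background on any of the 19 liver arrays and were left out. Before adjustment, 1 gene (Sgce) had a p of at most 0.05, against 4.78% of all probes. Its log2 ratios were -0.62, -0.59, -0.48, -0.38 and -0.32 in D0 and -0.76, -0.73, -0.65, -0.61 and -0.56 in D3, so that the lowest D0 mice lay inside the D3 range. The change was -0.18 ± 0.07 (SE, adjusted p = 0.969, limma). The changes of Sgcb (-0.05), Dmd (-0.09), Dag1 (-0.14) and Utrn (0.05) had 95% intervals that included 0 and stayed between -0.40 and 0.31. The median of the 6 changes was -0.07, against -0.01 over all probes.

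In forestomach, 8 genes were tested and none was called at D3, where 0.00727% of the 27527 probes were called by limma. Only Sspn had an unadjusted p of at most 0.05, against 9.24% of all probes. The median of the 8 changes was 0.07, against -0.00 over all probes. Sgcb was at -1.01, -0.81, -0.63, -0.58 and -0.41 in D0 and -0.70, -0.32, -0.30, -0.21 and 0.01 in D3. Its change was 0.38 ± 0.18 (SE, adjusted p = 0.543, limma), but the other 2 Sgcb probes gave 0.00 and -0.19, so the probes of this gene did not give 1 direction. Dmd varied most between arrays, at 0.42, 0.57, 0.63, 2.10 and 3.13 in D0 and 0.59, 1.29, 1.48, 2.21 and 3.31 in D3. The 2 highest values of each group came from slide 3 (D0 mice 2 and 5, D3 mice 19 and 20). The D0 means were 0.57, 0.53 and 2.61 on slides 1, 2 and 3, and the D3 means 1.39, 0.59 and 2.76. Slide 3 arrays had 40.4% to 51.7% of their spots well above background, against 18.9% to 34.9% on slides 1 and 2. The part of slide in this spread was not tested. The Dmd change of 0.40 ± 0.62 (SE, adjusted p = 0.907, limma) was smaller than this spread. With the smooth muscle list as a covariate the Dmd change was -0.95 (adjusted p = 0.309, limma). Leaving out a single mouse moved the change of 0.40 to between 0.02 (without mouse 20) and 0.84 (without mouse 5). The changes of Sgca, Sgcd, Sgce, Dag1 and Utrn lay between -0.07 and 0.09, with 95% intervals within -0.47 and 0.48. Over the alternative ways of processing, Dag1 in forestomach ran from 0.02 to 0.49 and Sgce from -0.17 to 0.40.

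**Figure D3:**
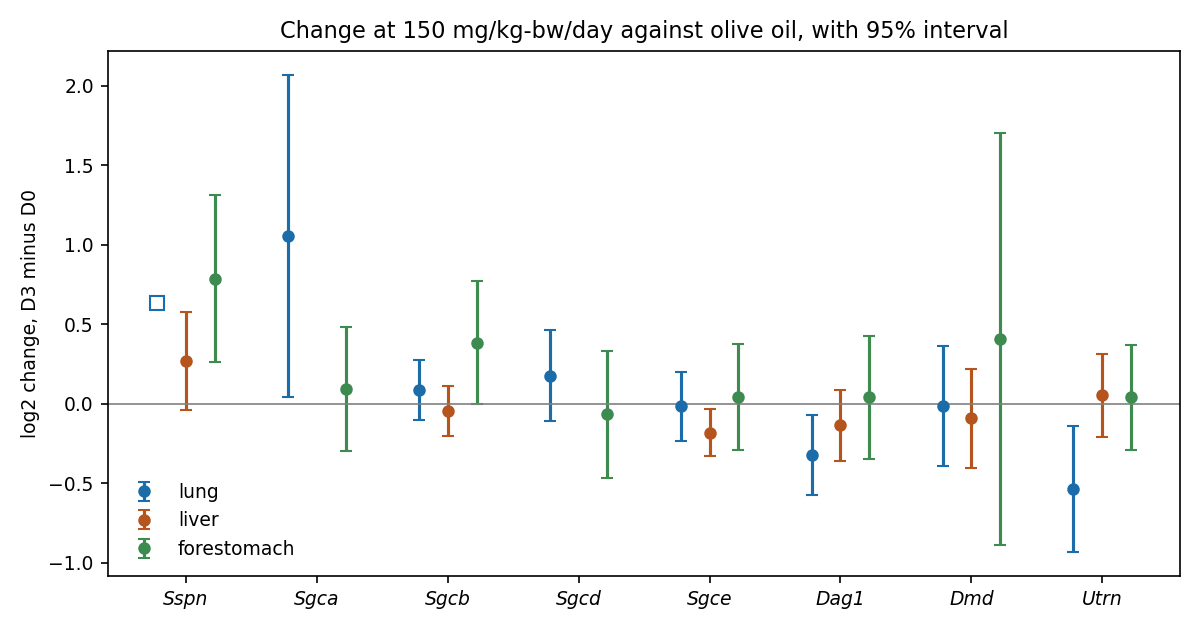
Difference of mean log2 ratio between D3 and D0 (y axis) for each gene (x axis) and tissue, with 95% intervals from limma. The open square is Sspn in lung (0.63), which is shown without an interval because the gene was picked on it, and no liver point is shown for Sgca and Sgcd, which were not well above background there. The intervals that miss 0 are those of Sspn in forestomach (0.26 to 1.31), Sgca (0.04 to 2.07, with 1 of 5 D0 arrays well above background), Dag1 (-0.57 to -0.07) and Utrn (-0.93 to -0.14) in lung, and Sgce in liver (-0.33 to -0.04), and none of the 5 passed the adjustment over all probes.

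Whether the D3 effect differed between tissues was tested directly for each gene and pair, Sspn being left out for the pairs with lung. Only pairs in which the probe was well above background on at least 3 arrays of each tissue were counted, which left out the pairs of Sgca, Sgcd and Dmd with liver. None of the remaining 16 differences was called by limma (3 had an unadjusted p of at most 0.05), where 0% of the probes measured in both tissues were called for lung and liver, 0.859% for lung and forestomach and 0.0977% for forestomach and liver. An unadjusted p of at most 0.05 was found at 4.62%, 14.0% and 11.7% of these probes. The Utrn effect in lung minus that in liver was -0.59 ± 0.23, and lung minus forestomach was -0.57 ± 0.23 (SE, adjusted p = 0.787 and 0.238, limma).

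The genes had tissue patterns in the olive oil mice. Between lung and liver, the 4 partners measured in both tissues differed past both limits (50.7% of all probes measured in both did). Utrn was 2.55 ± 0.16 higher in lung (SE, 5.84-fold), Sgce 2.18 ± 0.12 (4.52-fold), Sgcb 1.59 ± 0.14 (3.01-fold) and Dag1 1.25 ± 0.14 (2.38-fold). The adjusted p of these 4 by limma was 9.59e-11 or lower, and for each the lowest lung mouse lay above the highest liver mouse, as at 30.9% of all probes measured in both. The Sgcb probe was well above background on 2 of 5 D0 liver arrays, and the other 2 Sgcb probes gave smaller differences of 0.99 (1.98-fold) and 0.80 (1.74-fold), both past the limits. Sspn was 2.71 higher in lung (6.54-fold), given without a test. For Dmd, which is not in this count, the probes differed and no difference is read. The probe used for tissues was well above background on no liver array, while the probe with the higher liver signal, well above background on 3 of 5 D0 liver arrays, gave 0.28 ± 0.20 for lung minus liver (SE, adjusted p = 0.207, limma). When each array was centred on its median without loess, the median of all probes for lung minus liver was 0.62, and the differences became 3.65 for Utrn, 3.31 for Sgce, 2.79 for Sgcb, 2.35 for Dag1 and 3.87 for Sspn. Sgcd was not well above background on any liver array, and no difference between lung and liver is read for it.

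Lung and forestomach differed past both limits at 4 of the 7 partners (40.3% of all probes measured in both). Utrn (1.82 ± 0.16), Sgce (1.13 ± 0.12) and Dag1 (1.09 ± 0.14) were higher in lung, with adjusted p of 6.29e-09 or lower by limma. Sgcd is the fourth, but its probe was well above background on only 2 of 5 D0 forestomach arrays, and its difference is not read. Sspn was at nearly the same ratio in both, 0.93 ± 0.21 in lung and 0.84 ± 0.33 in forestomach (SD, n = 5 each), a difference of 0.09. With median centring, the median over all probes was 0.95 and these differences became 3.13 for Utrn, 2.95 for Sgce and 3.101 for Dag1. The Sspn difference was then 2.31, that of Sgcd -0.09 (adjusted p = 0.698, limma), and Sgcb went from 0.17 (adjusted p = 0.280, limma) to 2.13 (adjusted p = 1.24e-04, limma). The Dmd probe used for tissues gave -0.34 ± 0.40 and another Dmd probe 0.81 ± 0.20 for lung minus forestomach (adjusted p = 0.473 and 5.27e-04, limma).

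Forestomach exceeded liver past both limits at 4 of the 5 genes measured in both (21.8% of all probes measured in both were higher in forestomach past both limits, and 43.2% passed them in either direction). The differences were 2.62 ± 0.19 for Sspn (6.15-fold), 1.42 ± 0.14 for Sgcb, 1.04 ± 0.12 for Sgce and 0.73 ± 0.16 for Utrn, with adjusted p of 1.36e-04 or lower by limma. For Dmd no difference is read, because the probe detected in liver gave -0.53 ± 0.20 (SE, adjusted p = 0.0210, limma) and the probe used for tissues, undetected in liver, 1.37. Sgcd was well above background on no liver array and on 2 of 5 D0 forestomach arrays, and no difference is read for it. The Sgcb probe was well above background on 2 of 5 arrays in each of these tissues, and the other 2 Sgcb probes gave 1.37 and 1.31. Dag1 differed by 0.16 ± 0.14 (SE, adjusted p = 0.341, limma). With median centring, which put the median of all probes at -0.17, Sspn alone of the 5 genes kept its call between forestomach and liver, at 1.56 (adjusted p = 0.0408, limma). The calls of Sgcb (0.66, adjusted p = 0.294), Sgce (0.36, adjusted p = 0.631) and Utrn (0.52, adjusted p = 0.376, limma) were lost. On the deposited ratios lung and forestomach thus lay above liver for Sgcb. The order of the 2 upper tissues is not read, because the Sgcb probes differed. Lung minus forestomach was 0.17 with the probe used and -0.39 and -0.51 with the other 2 (adjusted p = 0.280, 0.0398 and 0.0173, limma). None of these passed the fold limit. For Sspn the means of lung and forestomach also lay above liver, without a test of lung. For Utrn and Sgce the order on this scale was lung, then forestomach, then liver, each step past both limits, and for Dag1 lung lay above forestomach and liver, which the test did not tell apart. With median centring lung had the highest mean for each of these 5 genes. Slides held 1 tissue each, so tissue and slide cannot be told apart. Values with the mouse as a block gave the same calls.

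**Figure D4:**
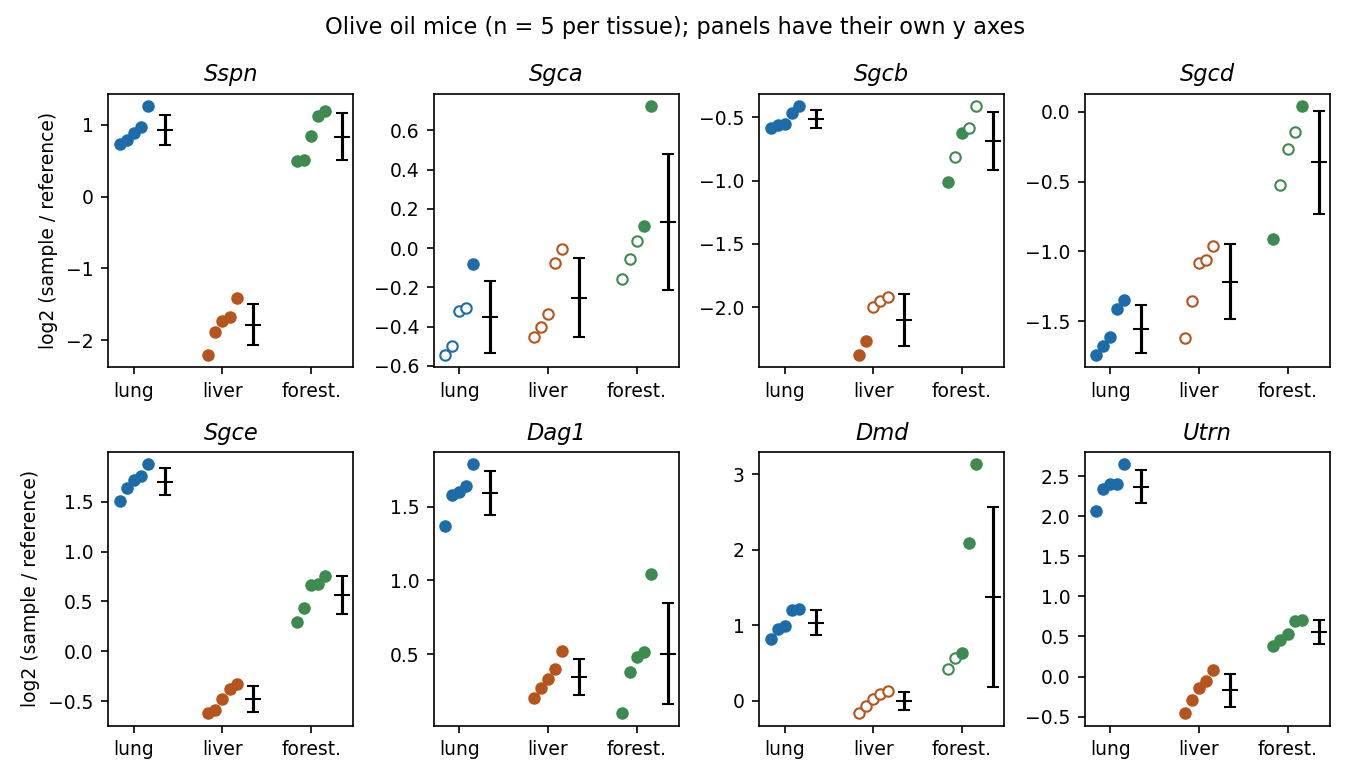
Log2 ratio of sample over reference (y axes, separate scales per gene) in lung, liver and forestomach of the 5 olive oil mice, 1 probe per gene. Filled points were well above background and open points were not, and bars are the mean ± SD. Sspn is at 0.93 in lung, -1.78 in liver and 0.84 in forestomach, and Dmd (with the probe drawn), Sgca and Sgcd have open points on every liver array.

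Smooth muscle is a tissue in which the complex is prominent, and the mean log2 ratio of 10 smooth muscle genes, none of them in the complex, was set against each gene after subtracting the dose group means. In forestomach Dmd followed this list closely, with r = 0.91 over 19 mice (permutation p = 1e-05, the smallest that the 100000 permutations can give, adjusted over 24 relations p = 2.4e-04) and rho = 0.84 (permutation p = 3e-05, adjusted p = 7.2e-04). Leaving out the 2 mice with the most extreme list values gave 0.83, and the r was 0.74 with slide removed as well. An r this high was found at 0.570% of the probes tested in forestomach. The Dmd probe was well above background in Cy5 on 16 of the 19 forestomach arrays and in the Cy3 reference on 0 of them (mean 40.7), so its ratio rests on a denominator near background. Every Dmd deviation on slide 3 was positive, and on slides 1 and 2 all but that of mouse 11 were negative. Sgca followed it too (r = 0.81, permutation p = 6e-05, adjusted p = 4.8e-04; rho = 0.66, permutation p = 0.0028, adjusted p = 0.0316), with r of 0.65 and 0.62 under these restrictions, but its probe was well above background on only 7 of the 19 forestomach arrays, which were the 7 arrays of slide 3, and this part of the relation was not tested. Sgce and Utrn had r of 0.60 and 0.54 in forestomach (permutation p = 0.00603 and 0.0167, adjusted p = 0.0241 and 0.0445), which fell to 0.41 and 0.40 without the 2 farthest mice, and their rho of 0.45 and 0.34 did not pass (permutation p = 0.053 and 0.156, adjusted p = 0.182 and 0.375). Sspn had r = 0.45 with the list in forestomach (permutation p = 0.0539, adjusted p = 0.118) and rho = 0.25 (permutation p = 0.293, adjusted p = 0.586). With slide removed its r was 0.63 (adjusted p = 0.0111, permutation test), and without the 2 farthest mice it was 0.15. Sgcb and Sgcd had r of 0.20 and 0.03 in forestomach, and 0.68 and 0.68 with slide removed (adjusted p = 0.00586 and 0.00620, permutation test), where the Sgcd probe was well above background on only 7 of the 19 arrays, while Utrn fell to 0.31 (adjusted p = 0.334, permutation test). The relation of Sspn to the list thus rested on few mice and on how slides were treated.

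In lung, mice 17 and 19 formed a cluster of their own, so the relations are given over the other 16 mice. Over all 18 lung mice Sgca, Sgcd, Sgce and Utrn were past the limit, which none of them was without these 2 mice. Over the 16 none of the 8 genes passed (r from -0.33 for Sgce to 0.45 for Utrn, permutation p of 0.0812 or higher, adjusted p of 0.647 or higher; rho from -0.36 to 0.43, permutation p of 0.0986 or higher, adjusted p of 0.494 or higher). In liver Sgca had r = 0.60 (permutation p = 0.00597, adjusted p = 0.0241) and rho = 0.64 (permutation p = 0.00395, adjusted p = 0.0316), although no liver array held it well above background. The other 7 genes had r between -0.14 and 0.29 in liver, and their lowest adjusted p was 0.463 for r. With slide removed as well, the liver r of Sgca was 0.42 (adjusted p = 0.139, permutation test) and that of Utrn 0.62 (adjusted p = 0.0111, permutation test), against 0.08 for Utrn without it.

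**Figure D5:**
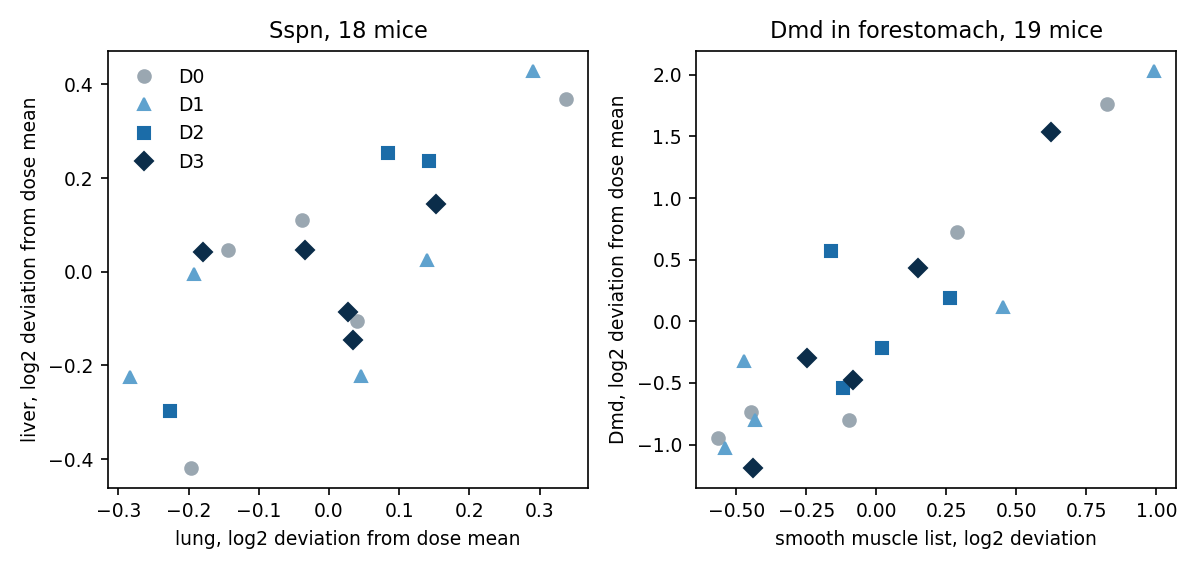
Left, the Sspn log2 deviation from the dose group mean in lung (x axis) and liver (y axis) of the same 18 mice, with symbols for dose (r = 0.73). Right, the deviation of Dmd (y axis) against that of the mean of 10 smooth muscle genes (x axis) in 19 forestomach arrays (r = 0.91).

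The patterns most like that of Sspn were listed as a description, over probes tested in lung. Over the 18 lung arrays these were Scnm1 (r = 0.82), Serpinb6e (0.81), Lrrc17 (0.81), Kmt5c (0.80) and Suclg2 (0.79), none of them in the complex. Over the 12 group means of the 3 tissues Srpx, Sgcb, Afap1 and Vps52 were among the closest, with r of 0.99 to 1.00. Sgcb was thus the member closest to Sspn by this measure, through the probe that gave 0.38 in D3 forestomach. That Sgcb probe was also among the 5 most like Sspn over the 19 forestomach arrays (r = 0.88), a comparison chosen after the values were seen.

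Beyond the 8 genes, 15 further partners of the complex, 17 genes that glycosylate dystroglycan and 10 matrix ligands were examined at D3, and none was called in any tissue by limma. In lung 12, 17 and 10 of these could be tested, with medians of 0.04, -0.00 and 0.07 against -0.03 over all probes. Before adjustment, 3 partners had a p of at most 0.05 and a higher D3 mean (6.05% of all probes did), and 1 partner and 2 glycosylation genes had such a p and a lower one (10.1% of all probes). The largest positive change in lung was that of Cav3, the muscle caveolin, at 1.36 ± 0.49 (SE, adjusted p = 0.207, limma). The 2 largest negative changes were those of Itga7, a laminin-binding integrin chain, at -0.26 ± 0.28, and Itgb1, the common beta integrin chain, at -0.22 ± 0.09 (SE, adjusted p = 0.685 and 0.256, limma).

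In forestomach 11, 16 and 10 of these genes could be tested, and the matrix ligands had a median of 0.41, against -0.00 over all probes, with 4 of the 10 higher at a p of at most 0.05 before adjustment (5.45% of all probes). The marker lists that moved between these groups, given above for Sspn, were not tested for their part in the ligand values. Of the partners 2 were higher at this limit, and of the glycosylation genes 2 were higher and 2 lower (3.79% of all probes were lower). Large2, a glycosyltransferase that extends the laminin-binding sugar of dystroglycan, was 1.25 ± 0.42 higher and Lama5, a laminin chain, 0.97 ± 0.28 (SE, adjusted p = 0.310 and 0.222, limma). The lowest were Gmppb, which makes GDP-mannose, at -0.59 ± 0.21 and Dpm2, a subunit of dolichol-phosphate-mannose synthase, at -0.35 ± 0.14 (SE, adjusted p = 0.335 and 0.402, limma). In liver 8, 16 and 10 could be tested and 0 had an unadjusted p of at most 0.05. The liver extremes were Gmppb (0.35 ± 0.27), Lama4 (0.24 ± 0.12), Dpm3 (-0.13 ± 0.07) and Large2 (-0.11 ± 0.13), all with an adjusted p of 1.00 by limma. Gmppb and Large2 thus had their point estimates on opposite sides of 0 in liver and forestomach.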

How the data were processed

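Per the labels and the study's methods, RNA of lung, liver and forestomach was labelled with Cy5 and a universal mouse reference RNA with Cy3, without a dye swap, and hybridised to Agilent 8 × 60 K mouse arrays. Per the file headers, Feature Extraction 10.7.3.1 wrote the deposited median spot intensities, which are not background-subtracted, and the deposited 0 or 1 flags that mark detected, saturated and non-uniform spots. The authors normalized these intensities with LOWESS within each array and deposited log2 ratios of Cy5 over Cy3. This scale and direction were checked against loess ratios computed from the scanner intensities, with a correlation of 0.977 to 0.998 per array. All per-sample columns were mapped to a sample.

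From there, the 3671 control spots were left out and 59305 spots were averaged to 55681 probes, of which 47.4% were named through their accession. The members and gene lists were chosen with earlier results of these data known. Testing in a tissue required a probe to be well above background in Cy5 on at least 3 of its arrays. limma 3.58.1 in R 4.3.3 fitted a mean for each dose group within a tissue and, for tissues, a mean for each tissue and dose group over all 56 arrays. p-values are two-sided and adjusted by Benjamini-Hochberg over all probes tested, and a call needed an adjusted p of at most 0.05 and a 1.5-fold change, the study's limits. Counts between tissues cover genes whose probe was well above background on at least 3 arrays of each tissue, a restriction set after seeing the data. limma stood in for the MAANOVA test that the methods name. At D3 it called fewer probes in each tissue than the number of genes the study lists for its high chrysene dose. An absence of calls here is therefore not the outcome of the study's own test. The dose trend is the fitted change from D0 to D3 over equal dose steps. Each mouse is a separate animal, and the number of arrays limits the precision. The code was tested on simulated data.

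The genes named are all 8 members, the 5 most like Sspn by each measure, and in each tissue the 2 largest positive and 2 largest negative changes among the other genes of the complex. A few items that this rule names are not reported here. The tissues came from the same mice, which pairs the arrays. The deviations of a mouse from its group means correlated between lung and liver by 0.04 to 0.27 over probes, between lung and forestomach by -0.09 to 0.13, and between forestomach and liver by -0.17 to 0.25. Alternatives covered the source of the ratios, background correction, centring, the filter on dim probes, slide, array column, marker lists as covariates, array weights, other probes, the mouse as a block and each mouse left out. The adipocyte covariate and the fit on forestomach slide 3 alone were chosen after seeing the data.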

Additional observations from a re-analysis of the deposited data

Results flagged for a closer look

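In D3 forestomach, 1 Sgca value stood apart from the rest of its group. Mouse 20 had a log2 ratio of 0.66, with the next highest mouse at 0.18, so that the gap took 0.793 of the group's range, against a critical value of 0.71 for 5 samples. Only mice 19 and 20 of this group had the spot well above background, so the gap is measured from a value near background. Of 88 groups of 4 or 5 mice examined in this way, 1 passed, and chance gives about 1 in 20, or 4.4 groups.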

How the results depend on the processing

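The count of genes called at D3 was 0 in each tissue under every alternative and without each mouse in turn. Over the alternatives Sspn changed at D3 by 0.41 to 0.79 in lung and by 0.52 to 1.22 in forestomach, where its adjusted p (limma) was 0.122 to 1.00. With array column as a covariate the lung changes were -0.38 for Sgca, -0.043 for Sgcd, 0.37 for Dag1 and 0.40 for Utrn. Column and dosing cannot be told apart in lung, so no direction is read from these 4 values. With skeletal muscle content in the fit Sgca was -0.089 and Sgcd -0.070, without mice 17 and 19 they were -0.051 and -0.062, and with array weights Sgcd was -0.0055931. The column covariate also took Sgcb in lung from 0.09 to 0.73 and Sgcd in forestomach from -0.07 to 0.37. In forestomach another Sgcb probe gave -0.19, and with the smooth muscle list as a covariate Dmd went from 0.40 to -0.95 and Sgca from 0.09 to -0.25. Median centring turned Sgcd in lung minus liver to 0.45 and Dag1 in forestomach minus liver to -0.75, and left 2 of 6 calls between forestomach and liver over all 8 genes, or 1 of 4 over the 5 genes measured in both. It moved the median of all probes by up to 0.18 at D3, and at D0 the calls over all probes were 13421 higher and 1871 lower in lung than in liver, against 8165 and 6936. The corresponding splits were 18010 and 887 against 6322 and 5969 for lung and forestomach, and 1535 and 5175 against 6548 and 5647 for forestomach and liver. Over the genes measured in both tissues, with Sspn left out for lung, leaving out each mouse gave 4 calls in each pair of tissues (Sgcd counted for lung and forestomach). With the mouse as a replicate block, which uses the pairing of tissues, the counts were also 4, 4 and 4 and no call changed. The 9 relations to the smooth muscle list past the limit (4 in lung over 18 mice, 1 in liver and 4 in forestomach) became 12 with deviations within slide, 5 without the 2 farthest mice and 4 with lung mice 17 and 19 left out, where the r of Utrn in lung was 0.45. Over all probes, calls at D3 numbered 40 in lung (0 to 48 over the alternatives, 0 to 143 without each mouse), 0 in liver (0 to 23, and 0 without each mouse) and 2 in forestomach (0 to 137, 0 to 9). The causes of these shifts were not tested. Signal over background limits Sgca, Sgcd and Dmd in liver and forestomach.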
